A study of Mus musculus with 10 samples.

Results

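Root cells are epithelial cells of the outer sulcus, which lines the outer wall of the cochlear duct below the stria vascularis, and 5 genes that mark them or the outer sulcus around them are described here: Anxa1, P2rx2, Lgr5, Epyc and Dpp10. They are a list of names, put together with earlier results of these data known, and are 5 of the 18725 genes in the deposited table. RNA was sequenced from outer sulcus dissected with the spiral ligament of C57BL/6J mice at postnatal day 10, in 5 euthyroid and 5 hypothyroid libraries. The mothers of the hypothyroid mice received 0.05% methimazole and 1.0% sodium perchlorate monohydrate with 5.0% sucrose in their drinking water, from embryonic day 17 and on until the pups were taken at day 10. The mothers of the euthyroid mice received vehicle over the same days. Methimazole blocks the making of thyroid hormone and perchlorate blocks iodide uptake. Any effect of the agents other than on the hormone cannot be told apart from it. Hormone levels are not given in the sources used here.

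Root cells send processes down into the spiral ligament, between fibrocytes and capillaries, and are thought to move ions between the endolymph and the lateral wall. Cation uptake by outer sulcus cells is gated in part by extracellular ATP, and the anion exchanger pendrin and an inwardly rectifying potassium channel are among their known transport proteins. Thyroid hormone is needed for the cochlea to mature before the onset of hearing, and its lack is known to delay the remodelling of the epithelium and the tectorial membrane. The question of the comparison was how the outer sulcus differs when the hormone is lacking during that period.

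Libraries held 19781921 to 20063961 estimated counts in the euthyroid group and 19298145 to 19407592 in the hypothyroid group. Hr and Klf9, which thyroid hormone is known to induce, ran from 100 to 123 and from 207 to 345 CPM (counts scaled to the composition-adjusted size of the library) in euthyroid libraries. They ran from 5.19 to 5.99 and from 14.96 to 35.6 CPM in hypothyroid libraries, which fits the group labels. The inner ear gene Otor, at 5127 to 5767 and 5273 to 7090 CPM, fits the labelled tissue, although the extraction text of the labels names joint cartilage. Differences were broad: edgeR called 10667 of 14862 tested genes (71.8%) at an adjusted p under 0.05, with 37.7% of all tested genes higher under hypothyroidism and 34.1% lower. In 57.9% of tested genes the ranges of the groups did not overlap. Counts of called genes in each list below are to be read beside these shares. The summed level of 4 Y-linked genes was 4.12 to 6.01 CPM in euthyroid replicate 5 and hypothyroid replicates 2 and 5, and 179 to 334 CPM in the other 7 libraries, so these libraries stand apart in Y-linked expression. The tissue is bulk, so fewer cells of a type and less RNA per cell cannot be told apart in any value below.

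P2rx2, Lgr5 and Epyc were lower in the hypothyroid libraries, Dpp10 was higher, and Anxa1 did not pass the test. All 5 genes passed the filter on low counts. By edgeR, 4 of the 5 were called, against 71.8% of all tested genes, and 3 of 5 were called lower, against 34.1%. The ranges of the groups did not overlap for the same 4 genes, against 57.9% of all tested genes. A share of 4 in 5 is near that background, so the count itself says nothing particular about root cell genes. What distinguishes the 5 from each other is the size and the direction of their differences, which ran from a log2 fold change of -2.02 to one of 2.83, beside a median of 0.04 over all tested genes.

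**Figure D1:**
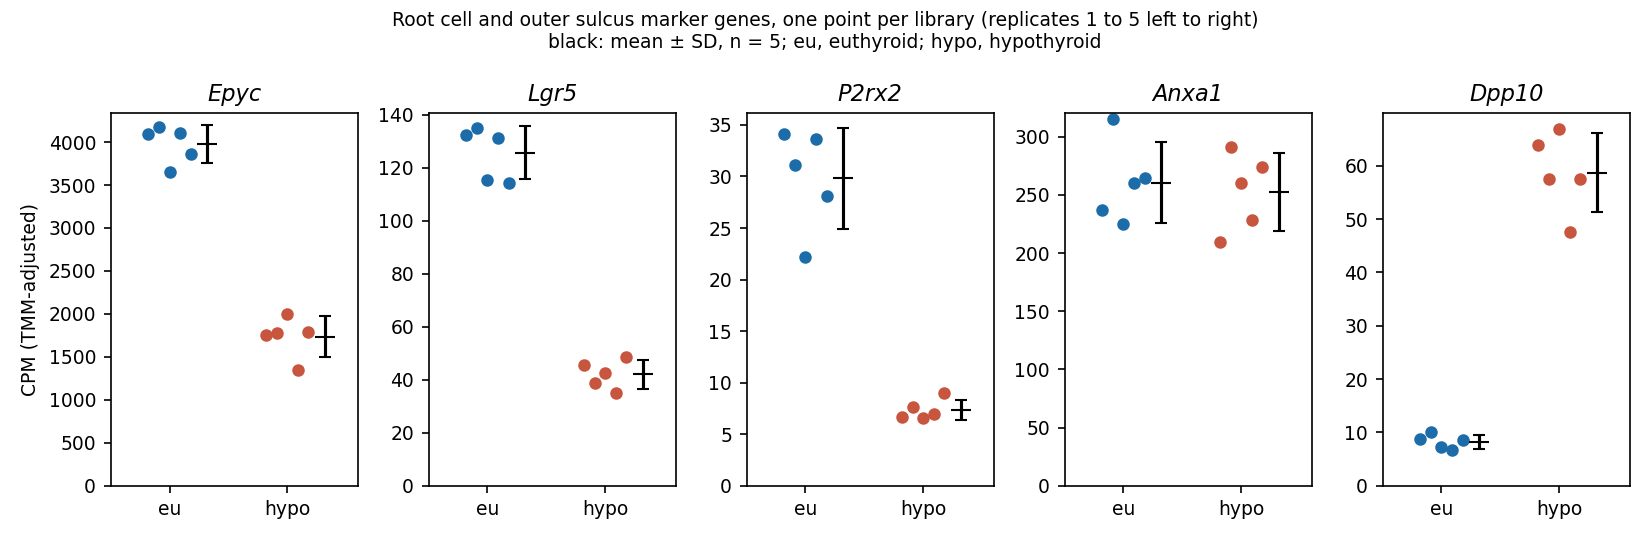
Level of each of the 5 marker genes in CPM, on a linear axis from 0 for each gene, in the 5 euthyroid and 5 hypothyroid libraries, with each point 1 library and black marks for the mean with its SD. The groups are apart for P2rx2, Lgr5, Epyc and Dpp10 and overlap for Anxa1.

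P2rx2 encodes a subunit of an ATP-gated cation channel, through which outer sulcus and other cochlear epithelial cells take up cations when ATP is released into the endolymph. Human variants of the gene cause progressive hearing loss. It was at 34.1, 31.1, 22.2, 33.7 and 28.1 CPM in euthyroid replicates 1 to 5, and at 6.68, 7.60, 6.60, 6.97 and 8.995 CPM in hypothyroid replicates 1 to 5. Even the lowest euthyroid library, replicate 3, was 2.47 times the highest hypothyroid one, replicate 5. The mean fell from 29.8 ± 4.90 to 7.37 ± 0.990 CPM (SD, n = 5 each), a log2 fold change of -2.02 (SE 0.12, adjusted p = 1.75e-09 by edgeR). This is 4.05-fold lower, with a 95% interval of 3.38 to 4.85. An exact two-sided permutation test over all 252 assignments of 5 libraries to each group gave p = 0.00794, the smallest it can give, for P2rx2 and for each of the other 3 called markers. The gene had 2709 estimated counts in all euthyroid libraries together and 782 in all hypothyroid ones. P2rx2 lies on the minus strand of chromosome 5 at chr5:110339812-110343212 (GRCm38, GENCODE), a gene of 3.4 kb with 7 exon blocks.

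The P2X subunits were of mixed direction. Of 6 tested, P2rx2 included, 2 rose, 3 fell and 1 did not pass, and the median log2 fold change was -0.08. P2rx7, the subunit of macrophages and other immune cells, rose (log2 fold change 0.92), as did P2rx6 (1.14). P2rx4, the subunit with the highest mean TPM in both groups, fell by 0.38 on the log2 scale, and P2rx5, at 1.62 to 2.82 CPM in euthyroid libraries, fell by 0.75. P2rx3 was at a log2 fold change of 0.21 (adjusted p = 0.392 by edgeR), and P2rx1 had too few counts to test. The balance among the channels moved with P2rx2: P2rx4 over P2rx2, per length in TPM, had a median of 1.22 in the euthyroid and 4.28 in the hypothyroid libraries, and P2rx7 over P2rx2 went from 0.207 to 1.73. The ranges of both ratios did not overlap between groups.

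Genes that release, sense or degrade extracellular ATP were also of mixed direction. In a list of P2Y receptors, ATP release channels and nucleotidases, 4 of 16 tested genes rose, 8 fell and 4 did not pass, with a median log2 fold change of -0.21. Nt5e, the ectonucleotidase that makes adenosine from AMP, fell by 1.94 on the log2 scale, from 60.1 to 62.5 CPM over euthyroid libraries to 12.9 to 19.1 CPM over hypothyroid ones. Entpd3, an ectonucleotidase that degrades ATP, fell by 1.11. Entpd1 rose by 0.32, while Entpd2 and Alpl, the tissue-nonspecific alkaline phosphatase, fell by 0.36 and 0.47. Enpp1, which makes pyrophosphate from ATP, was at -0.03 (adjusted p = 0.663 by edgeR) and turned sign with library totals alone. The call of Alpl was lost in 10 of 21 alternative settings, among them upper quartile factors and leaving out euthyroid replicate 1 or 4 or hypothyroid replicate 2, 3 or 5, and that of Entpd2 in 4. With libraries scaled by their totals alone, 5 rather than 8 genes of the list were lower.

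Lgr5 encodes a receptor for R-spondins, secreted proteins that raise the response of a cell to Wnt ligands, and it marks stem and progenitor cells in many epithelia. In the cochlea it is known from supporting cells of the organ of Corti as well as from the lateral epithelium. It was at 132, 135, 116, 131 and 114 CPM in euthyroid replicates 1 to 5, and at 45.4, 38.9, 42.4, 34.8 and 48.5 CPM in the hypothyroid replicates. The groups were apart, with the lowest euthyroid library 2.36 times the highest hypothyroid one. The mean fell from 126 ± 9.95 to 42.0 ± 5.37 CPM (SD, n = 5 each), a log2 fold change of -1.58 (SE 0.08, adjusted p = 5.98e-10 by edgeR). Lgr5 was thus 2.99-fold lower (95% interval 2.64 to 3.38). Its gene spans 137.5 kb on the minus strand at chr10:115450311-115587780, with 17 exon blocks. The protein-coding gene A930009A15Rik lies inside it on the opposite strand but shares 0 exon bases with it.

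A relative of Lgr5 moved the other way. Lgr6, which also binds R-spondins, rose from 12.1 to 16.3 CPM over the euthyroid libraries to 83.3 to 112 CPM over the hypothyroid ones (log2 fold change 2.82, SE 0.09, 7.07-fold, adjusted p = 3.49e-12 by edgeR). Per length, Lgr6 over Lgr5 had a median TPM ratio of 0.0803 in the euthyroid libraries (0.0644 to 0.0941) and of 1.74 in the hypothyroid ones (1.47 to 1.78). Lgr6 was thus the lower of the pair in all 5 euthyroid libraries and the higher in all 5 hypothyroid libraries. Lgr4, the third receptor, rose by 0.25 on the log2 scale, with overlapping groups. Of the secreted ligands, Rspo3 rose (0.85), Rspo2 fell (-0.49, a call lost in 4 of 21 alternatives) and Rspo1 was at -0.17 (adjusted p = 0.290 by edgeR). Of the membrane ubiquitin ligases that R-spondins oppose, Znrf3 fell (-0.58) and Rnf43 was at -0.06 (adjusted p = 0.474 by edgeR). In all, with Lgr5 included, 3 of 8 tested genes of this receptor arm rose and 3 fell.

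Targets of Wnt/beta-catenin signalling did not share a direction: 5 of 14 tested genes rose, 6 fell and 3 did not pass, with a median log2 fold change of -0.05. Among the 6 with the highest mean CPM, a rank that also depends on transcript length, Apcdd1, an inhibitor of Wnt signalling at the membrane, fell by 2.56 on the log2 scale, from 667 to 828.8 CPM to 102 to 138 CPM. Tnfrsf19 fell by 1.64, Notum, a secreted enzyme that inactivates Wnt ligands, by 1.55, and the feedback inhibitor Nkd1 by 0.64. The feedback target Axin2 rose by 0.62 and the cell cycle gene Ccnd1 by 1.51. The groups did not overlap for any of these 6 genes.

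Epyc encodes epiphycan, a small leucine-rich proteoglycan of growth plate cartilage and of the developing cochlear epithelium. It was at 4098, 4177, 3648, 4103 and 3856 CPM in euthyroid replicates 1 to 5, and at 1759, 1780, 1993, 1349 and 1791 CPM in the hypothyroid replicates. Hypothyroid replicate 4 was the lowest of all, and the lowest euthyroid library was still 1.83 times the highest hypothyroid one. The mean fell from 3977 ± 220.0 to 1734 ± 235 CPM (SD, n = 5 each), a log2 fold change of -1.20 (SE 0.08, adjusted p = 8.80e-09 by edgeR), or 2.29-fold lower (95% interval 2.02 to 2.60). Epyc lies on the plus strand at chr10:97644068-97682454 with 8 exon blocks. It shares 1041 exon bases with Gm10754, a long noncoding RNA on the opposite strand, and since the strand setting of the libraries is not stated, reads from the pair cannot be told apart there.

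Most other small leucine-rich proteoglycans were higher where Epyc was lower. Of 17 tested, Epyc included, 11 rose, 4 fell and 2 did not pass, with a median log2 fold change of 0.62. Over all tested genes 37.7% were called higher and 34.1% lower. Values in the list ran from -2.56 to 3.82, so a gene outside the 6 with the highest mean CPM fell more than Epyc. Ogn, or osteoglycin, rose from 241 to 259 CPM to 1387 to 1528 CPM (log2 fold change 2.56). Fmod (2.02), Bgn (1.43) and Dcn (0.74), which bind collagen fibrils or growth factors in connective tissue, also rose. Lum, or lumican, fell by 0.41, a call that was lost in 4 of 21 alternatives, library totals alone among them. Ogn over Epyc, per length, had a median TPM ratio of 0.0408 in euthyroid and 0.563 in hypothyroid libraries, and Epyc stayed above Ogn in all 10 libraries.

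Dpp10 encodes a membrane protein of the DPP4 family that has lost peptidase activity and serves as an auxiliary subunit of Kv4 potassium channels. It was at 8.80, 10.01, 7.28, 6.64 and 8.59 CPM in euthyroid replicates 1 to 5, and at 63.9, 57.6, 66.9, 47.6 and 57.6 CPM in the hypothyroid replicates. The lowest hypothyroid library, replicate 4, was 4.75 times the highest euthyroid one, replicate 2. The mean rose from 8.27 ± 1.33 to 58.7 ± 7.40 CPM (SD, n = 5 each), a log2 fold change of 2.83 (SE 0.11, adjusted p = 4.12e-11 by edgeR), or 7.09-fold higher (95% interval 5.99 to 8.39). This was the only one of the 5 markers to rise. Dpp10 spans 724.1 kb on the minus strand at chr1:123321471-124045559, with 29 exon blocks and no exon base shared with another gene.

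The active peptidases moved less. Dpp4 rose from 56.0 to 65.9 CPM to 84.7 to 111 CPM (log2 fold change 0.71), Dpp8 fell by 0.30, a call lost in 4 of 21 alternatives, and Dpp9 was at 0.06 (adjusted p = 0.293 by edgeR). Fap, the peptidase of activated fibroblasts, was called higher at 0.24 (adjusted p = 0.0464 by edgeR), with overlapping groups and a call that was lost in 12 of 21 alternative settings. Dpp6, the other auxiliary subunit of the family, had too few counts to test. Of the Kv4 channels that Dpp10 can join, Kcnd1 rose by 0.81 and Kcnd2 by 1.30, the latter from 0.394 to 1.496 CPM to 1.601 to 2.94 CPM. Kcnd3 fell by 0.44, with overlapping groups and a call lost in 6 of 21 alternatives, leaving out hypothyroid replicate 2 among them. Of their calcium-sensing partners, Kcnip4 was at 0.25 (adjusted p = 0.0374 by edgeR, not passing in 11 of the 21 alternatives) and Kcnip3 at -0.04. All of these channel genes were at most at 12.2 CPM in any library.

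Anxa1 encodes annexin A1, a protein that binds phospholipids in the presence of calcium and, once secreted, acts on formyl peptide receptors to limit inflammation. In the cochlea it is known as a marker of root cells. It was at 237, 315, 225, 261 and 265 CPM in euthyroid replicates 1 to 5, and at 209, 292, 260, 229 and 274 CPM in the hypothyroid replicates. The groups overlapped over most of their range. The means were 261 ± 34.7 and 253 ± 33.4 CPM (SD, n = 5 each), with a log2 fold change of -0.04 (SE 0.10, adjusted p = 0.715 by edgeR). The 95% interval ran from -0.27 to 0.18 on the log2 scale, from 0.829 to 1.13 as a ratio. The exact permutation p was 0.698. The sign of the Anxa1 value was not stable. It was 0.22 with library totals alone, where the median of all tested genes was 0.30, and 0.02 without euthyroid replicate 2 or without hypothyroid replicate 1, and no alternative passed the test. Anxa1 lies on the minus strand at chr19:20373428-20390944, with 15 exon blocks.

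**Figure D2:**
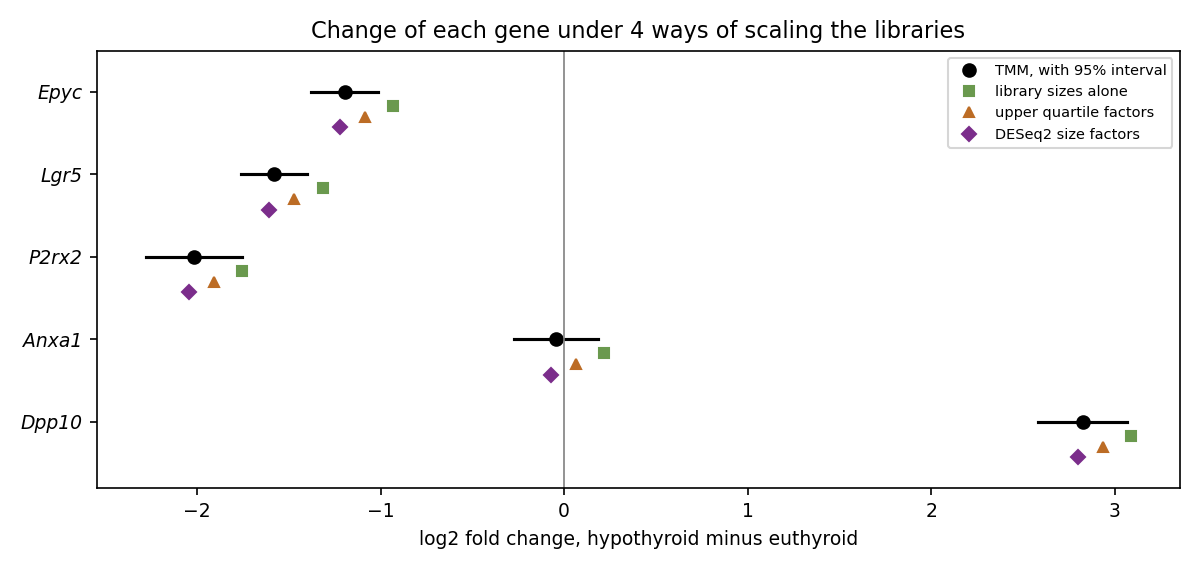
Log2 fold change of the 5 marker genes, hypothyroid minus euthyroid, from edgeR with TMM factors and its 95% interval, with library totals alone, upper quartile factors and DESeq2 size factors as other symbols. P2rx2, Lgr5 and Epyc lie below 0 and Dpp10 above it under all 4 scalings, and the values of Anxa1 lie on both sides of 0.

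The annexins were not of 1 direction. Of 10 tested, Anxa1 included, 3 rose, 5 fell and 2 did not pass, with a median log2 fold change of -0.14. Anxa2, the membrane annexin that pairs with S100a10, rose from 206 to 252 CPM to 526 to 599 CPM (log2 fold change 1.31), and Anxa3 and Anxa4 rose by 0.68 and 0.44. Anxa9 fell by 2.19 and Anxa8 by 1.05, while Anxa5 and Anxa11 fell by 0.32 and 0.42, the call of Anxa5 being lost in 4 of 21 alternatives. Anxa7 fell by 0.15, but with library totals alone it was called higher instead (0.12, adjusted p = 0.0115 by edgeR). Anxa6 was at -0.14 (adjusted p = 0.0886 by edgeR), also with a sign that turned under that scaling. Anxa2 over Anxa1, per length, had a median TPM ratio of 0.888 in euthyroid libraries and of 2.29 in hypothyroid ones, so the more abundant of the pair was Anxa1 in all euthyroid and Anxa2 in all hypothyroid libraries. With library totals alone, 3 rather than 5 annexins were lower.

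Among 7 tested partners and pathway genes of annexin A1, 5 rose, 1 fell and 1 did not pass, with a median log2 fold change of 0.77. S100a10, the partner of Anxa2, rose by 1.87 and S100a11, the partner of Anxa1, by 0.77. The receptor genes Fpr1 and Fpr2 rose by 1.90 and 0.78 from very low levels, with 30 and 46 counts in all in the euthyroid libraries. Alox5, a leukocyte enzyme of leukotriene synthesis, rose by 0.74, a call that was lost without hypothyroid replicate 2 (adjusted p = 0.0523 by edgeR). Pla2g4a, the phospholipase A2 that annexin A1 inhibits, fell by 1.73. Tsc22d3, a glucocorticoid-induced gene, was at 0.48 (adjusted p = 0.169 by edgeR).

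**Figure D3:**
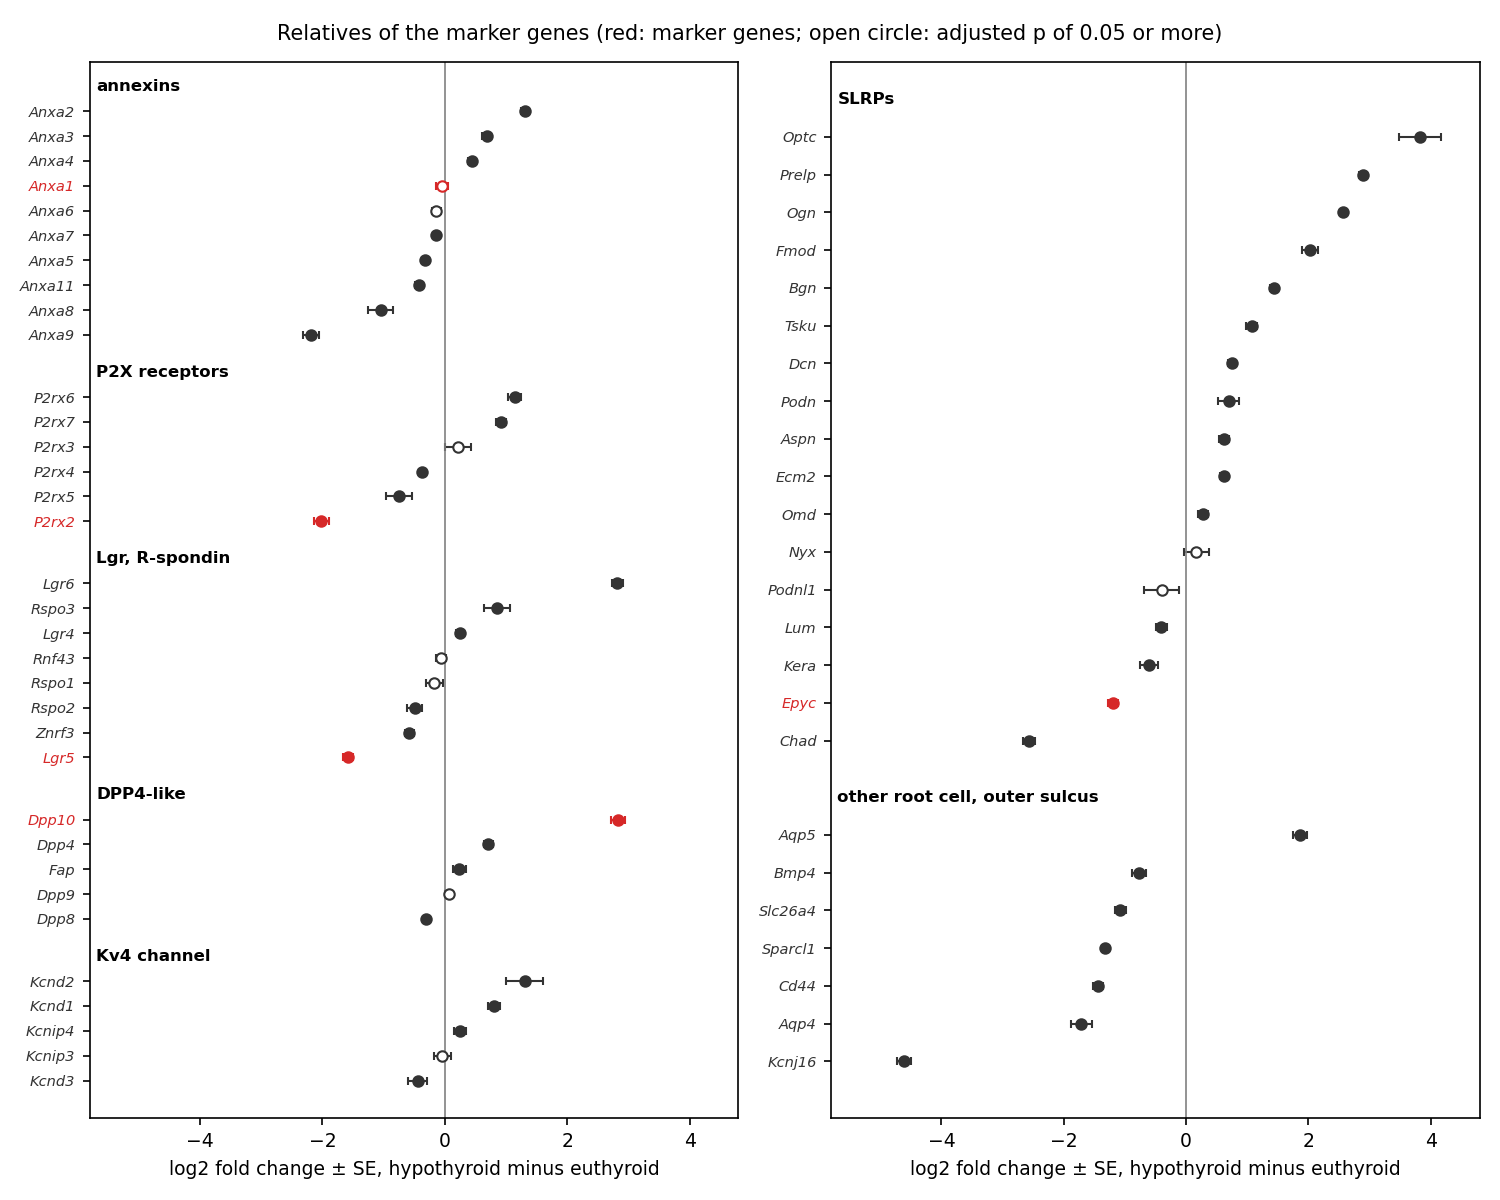
Log2 fold change with its SE for every tested gene of 7 lists, with the marker genes in red and open circles for genes with an adjusted p of 0.05 or more. Lgr6, Dpp10 and Ogn lie at the high end of their lists, P2rx2 and Lgr5 are the lowest of theirs, and Anxa1 lies near 0 among annexins on both sides of it.

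Promoter sequences of RefSeq (GRCm38.p6) were matched for 3 of the 5 markers, and those of Epyc and Dpp10 are shown because one of these genes fell and the other rose. Each line gives the 250 bases before a RefSeq start site, 5' to 3' on the strand of the gene; capitals would mark the letters TATAA, which neither holds. They lie at chr10:97643818-97644067 for Epyc (the first of 2 start sites) and at chr1:124045560-124045809 for Dpp10, on the minus strand and inside the longer RefSeq gene. The window of Anxa1, chr19:20390672-20390921, lies inside the longer GENCODE gene and is not shown.
Epyc: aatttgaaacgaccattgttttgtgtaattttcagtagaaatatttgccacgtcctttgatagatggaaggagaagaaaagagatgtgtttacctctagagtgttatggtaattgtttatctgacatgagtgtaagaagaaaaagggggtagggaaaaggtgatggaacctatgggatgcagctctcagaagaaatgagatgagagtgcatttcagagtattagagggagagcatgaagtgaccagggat
Dpp10: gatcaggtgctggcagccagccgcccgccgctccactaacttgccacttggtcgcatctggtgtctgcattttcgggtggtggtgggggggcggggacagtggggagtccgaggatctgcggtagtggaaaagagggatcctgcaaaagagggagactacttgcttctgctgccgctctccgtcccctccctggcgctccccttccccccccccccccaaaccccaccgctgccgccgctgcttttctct

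The 6 letters AGGTCA, the half-site to which thyroid hormone receptors bind, were searched on both strands. They occur in 14.02% of 32851 mouse promoters of this length and in none of the 4 promoters of Anxa1, Dpp10 and Epyc, and the direct repeat with 4 bases between occurs in 0.0152% of all. That is a statement about these letters in this window only. TATAA, searched on the strand of the gene, stands 32 bases before the RefSeq start site of Anxa1, and 16.0% of all promoters hold it. GC content was 39.2% and 31.2% for the first and second Epyc start sites, 65.2% for Dpp10 and 46.0% for Anxa1, against a median of 52.4%.

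Per transcript length, in TPM, the markers differed by orders of magnitude. Epyc had a mean of 5341 TPM in the euthyroid libraries, the 16th highest of all genes, and Anxa1 had 437, Lgr5 60.8, P2rx2 39.0 and Dpp10 4.09. No neighbours in that order overlapped in range over the 5 libraries. In the hypothyroid libraries the means were 2720 for Epyc, 494 for Anxa1, 33.8 for Dpp10, 23.8 for Lgr5 and 11.1 for P2rx2. Epyc stayed among the most abundant genes, at rank 18, while Dpp10 moved from rank 11729 to 5897. Lgr5 went from rank 3195 to 7425 and P2rx2 from 4769 to 10127, and Anxa1 from 301 to 252. Dpp10 was above Lgr5 in all 5 hypothyroid libraries, although their ranges overlapped in TPM, from 27.6 for the lowest Dpp10 to 28.1 for the highest Lgr5. Dpp10 thus went from the last place in the order to the third.

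**Figure D4:**
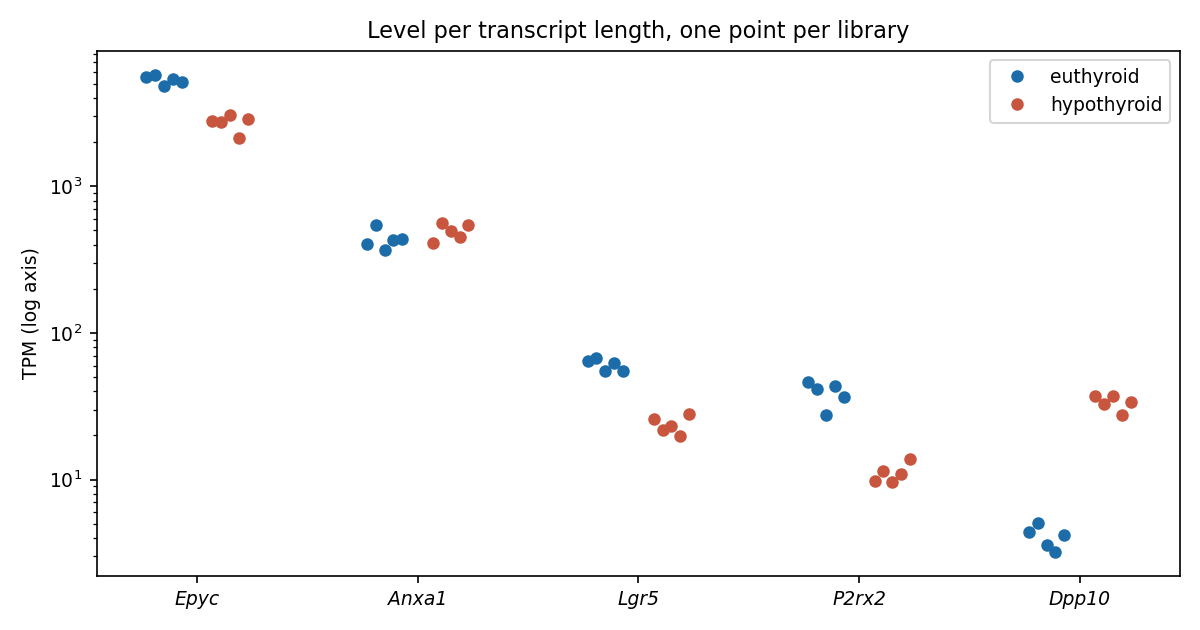
Level of the 5 marker genes per transcript length, in TPM on a log axis, for each library of both groups. Epyc and Anxa1 keep the first and second place, and Dpp10 moves from the lowest place in the euthyroid libraries to the third in the hypothyroid ones.

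Ratios of markers within a library do not depend on how libraries are scaled against each other. All 10 pairs of the 5 genes were compared on log2 TPM ratios, a comparison chosen after the data were seen, and p-values of exact permutation tests were adjusted over the 10. P2rx2 over Dpp10 changed most, from a mean ratio of 9.72 to 0.334, a 29.0-fold change (adjusted permutation p = 0.00882). Lgr5 over Dpp10 changed 21.4-fold and Epyc over Dpp10 16.4-fold. Among the 3 markers that fell, P2rx2 fell more than Lgr5, with a change of their ratio of 1.36-fold (adjusted permutation p = 0.0238). Lgr5 fell more than Epyc, by 1.30-fold (adjusted permutation p = 0.00882), and P2rx2 more than Epyc, by 1.77-fold (adjusted permutation p = 0.00882). The markers therefore did not change by a common factor. Anxa1 over each of the 3 that fell rose, by 3.95-fold against P2rx2, 2.91-fold against Lgr5 and 2.24-fold against Epyc, each with an adjusted permutation p of 0.00882.

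Within groups the markers varied by modest amounts. The highest library was 1.15 to 1.54 times the lowest within the euthyroid group and 1.36 to 1.48 times within the hypothyroid group, for each of the 5. Euthyroid replicate 2 was the highest of its group for 4 markers, Anxa1, Lgr5, Epyc and Dpp10. Euthyroid replicate 3 was the lowest for Anxa1, P2rx2 and Epyc, and hypothyroid replicate 4 for Lgr5, Epyc and Dpp10. With Y-linked expression as a covariate, a check added after the data were seen, the calls of all 5 markers stayed the same and the Anxa1 value was -0.09.

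Of the other genes of root cells and the outer sulcus, most were lower in the hypothyroid libraries: 6 of 7 fell and 1 rose, with a median log2 fold change of -1.32, where 34.1% of all tested genes were called lower and 71.8% called in either direction. The list was chosen with earlier results of these data known, so its count is a description. Kcnj16, an inwardly rectifying potassium channel subunit, fell 24.4-fold, from 321 to 425 CPM to 12.3 to 16.9 CPM. The water channel gene Aqp4 fell by 1.72 on the log2 scale, Cd44, a hyaluronan receptor, by 1.44 and Sparcl1, a matrix protein, by 1.32. Slc26a4, which encodes pendrin, fell by 1.08 and the ligand gene Bmp4 by 0.77. Aqp5, the other water channel gene of the list, rose by 1.86, from 18.7 to 31.0 CPM to 80.0 to 98.9 CPM. The list thus held 1 gene that went against the other 6.

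The genes whose profile over the 10 libraries was most like each marker were found by the root mean square (RMS) difference between mean-centred log2 CPM profiles, over 11983 genes. For P2rx2 these were Dgat2, Tmprss6 and Arhgef26, at RMS differences of 0.12, 0.12 and 0.13 log2 units, against a median of 1.00 over all genes. For Lgr5 they were Gpam, Pik3ap1 and Cdo1 (0.097 to 0.11, median 0.81). For Epyc they were Abhd2, Sh2d4a and Lrrc8b (0.074 to 0.075, median 0.63), and for Dpp10 Ccdc148, Kcns3 and Trpm5 (0.10 to 0.15, median 1.40). Those nearest to Anxa1 were Tnmd, Fdxacb1 and Fermt1 (0.10 to 0.11, median 0.27).

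Markers of other cell types that the dissected strip can hold moved as well, and their part in the results above was not tested. Their counts are by edgeR, where 34.1% of all tested genes were called lower and 37.7% higher. Lgr5 and P2rx2 are also known from the organ of Corti, and 8 of 9 tested supporting cell genes were lower, with a summed level of 3488 to 4798 CPM in euthyroid and 410 to 441 CPM in hypothyroid libraries. In the euthyroid libraries most of that sum was Emilin2 (2723 to 3959 CPM, against 57.4 to 75.6 CPM in hypothyroid ones), and without it the sums were 764 to 839 and 341 to 366 CPM. Of 11 tested hair cell genes 8 were lower, with sums of 374 to 472 and 249 to 297 CPM (54.4 to 115 and 39.3 to 51.0 CPM without Myo6), and Slc26a5, the motor protein gene of outer hair cells, had 641 counts in euthyroid libraries and 0 in hypothyroid ones. Epyc is also a cartilage gene, and 7 of 11 cartilage genes were lower, with sums of 72365 to 82575 and 29066 to 31686 CPM. Bone genes, 9 of 10 lower, had sums of 1636 to 2492 and 358 to 891 CPM, with Bglap2 at 0 counts in hypothyroid libraries. Anxa1 is also expressed in leukocytes, and 11 of 12 macrophage genes were higher, with sums of 311 to 345 and 471 to 607 CPM. Neutrophil genes, of which 1 of 8 was lower, summed to 52.8 to 105 and 42.0 to 76.2 CPM. Dpp10 is known from neurons, and neuronal genes summed to 28.5 to 39.5 and 45.4 to 63.4 CPM, with 2 of 5 tested higher and 3 lower. The higher sum came from Syt1, at 11.3 to 17.2 and 41.5 to 53.4 CPM, and without it the direction turned, with sums of 17.3 to 23.1 and 3.88 to 10.5 CPM. Genes of the cochlear epithelium as a whole were divided, 5 of 11 higher and 4 lower, with sums of 2922 to 3470 and 1981 to 2807 CPM, which overlapped once Gjb2 was left out (1308 to 1565 and 1158 to 1454 CPM). So were those of spiral ligament fibrocytes, 5 of 10 higher and 4 lower, with sums of 18915 to 22648 and 11570 to 14226 CPM.

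**Figure D5:**
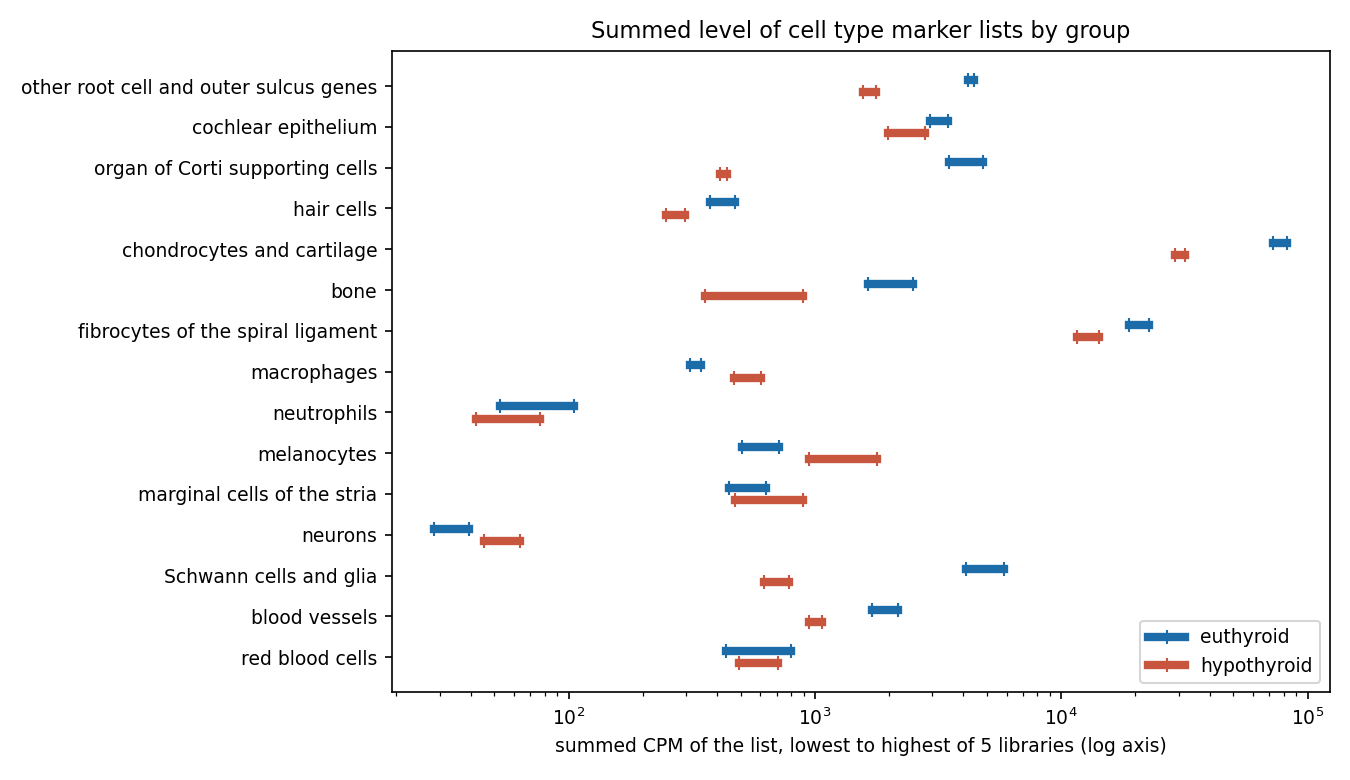
Summed CPM of each cell type marker list, on a log axis, with each bar running from the lowest to the highest of the 5 libraries of a group. Supporting cell, hair cell, cartilage, bone and fibrocyte lists are lower in every hypothyroid library than in any euthyroid one. So are the lists of cochlear epithelium, Schwann cells and glia, blood vessels and other root cell and outer sulcus genes. Macrophage, melanocyte and neuron lists are higher in every hypothyroid library. The neutrophil, marginal cell and red blood cell lists overlap.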

How the data were processed

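RNA-seq of 10 libraries (polyadenylated RNA, single-end reads of 50 bases, per the labels' protocols) was analysed from 1 deposited table. The submitters' processing notes name RSEM 1.2.12, Bowtie2 2.2.5, HISAT2 2.0.4 and build GRCm38.p6, with no role for each tool. Per the file headers, the authors deposited expected counts (estimated counts per gene that need not be whole), FPKM and TPM values (which adjust for transcript length and library total). They also deposited normalised counts, a signal scaled by 1 factor per library that enters no result here. Whether the libraries kept strand is not stated.

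Expected counts were rounded and filtered with filterByExpr of edgeR 4.0.16 (minimum count 10), leaving 14862 of 18725 genes. Levels are CPM with TMM factors, which were 0.894 to 0.936 for the euthyroid group and 1.07 to 1.12 for the hypothyroid group. Groups were compared with the edgeR quasi-likelihood test (two-sided, group as the only term, Benjamini-Hochberg over all tested genes, threshold 0.05). Fold changes are hypothyroid minus euthyroid on the log2 scale, and SE is the absolute log2 fold change over the square root of the F statistic. Levels of the markers and their relatives were compared with each other in TPM, while genes within a list were ranked for naming, and lists summed, in CPM, which gives longer transcripts more weight, and exact permutation tests were used for single values and for ratios within libraries. The work was done in Python 3.11.15 with pandas 2.3.3 and matplotlib 3.10.9, and in R 4.3.3 with DESeq2 1.42.0 and limma 3.58.1. The fit was also run on simulated data with 66, 67 and 66 of 14862 genes changed 1.5-, 2.0- and 4.0-fold. Far fewer genes changed there than were called here, so that run cannot test the scaling used.

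Members, lists and the naming rule were chosen with earlier results of these data known. The naming rule picked the 5 markers and the 3 genes nearest in profile to each marker (mean of at least 5 CPM). Of family and pathway lists with up to 10 tested genes it picked all tested genes, and of longer ones the 6 with the highest mean CPM. Of each cell type list it picked the gene with the highest mean CPM in each group and any at 0 in a whole group. Not all genes picked from cell type lists are named in the text. Nothing says whether the libraries are separate animals, so p-values measure only the spread among these libraries, which may be technical, and a litter effect cannot be told apart from the treatment. Over 20 pairs of libraries within groups the mean chi-square per gene was 5.3 to 15.6, above sampling noise, so none was treated as a duplicate. Alternatives were other scalings and count filters, DESeq2, limma on log2 TPM or FPKM, a replicate block, leaving out each library and, chosen after seeing the data, a Y-linked covariate, ratios within libraries and list sums without the gene of highest mean CPM.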

Additional observations from a re-analysis of the deposited data

How the results depend on the processing

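P2rx2, Lgr5, Epyc and Dpp10 kept their direction and stayed past the threshold in all 21 alternatives, of which 20 were planned. Their log2 fold changes ran from -2.12 to -1.57, from -1.64 to -1.24, from -1.25 to -0.93 and from 2.50 to 3.09. Anxa1 passed in none, and its value turned positive in 7: 0.22 with library sizes alone, 0.064 with upper quartile factors, 0.18 with limma on log2(TPM + 1), 0.22 on log2(FPKM + 1) and 0.18 on log2(TPM + 0.1), with leave-one-out values of Anxa1 from -0.10 to 0.019. Genes called over the whole table moved with scaling: 8649 higher and 2930 lower with library sizes alone, 8538 and 2956 with limma on FPKM, and 3219 and 3226 lower with limma on TPM with a pseudocount of 1 and 0.1. Of the called genes, 52.5% were higher with TMM, 74.7% with library sizes alone, 62.5% with upper quartile factors and 71.5% and 74.3% with limma on TPM and FPKM. The cause of these shifts was not tested.

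Signs of genes near 0 turned as well. With library sizes alone and with limma on log2(TPM + 1), log2(FPKM + 1) and log2(TPM + 0.1), in that order, Anxa6 was at 0.13, 0.094, 0.13 and 0.094, Anxa7 at 0.12, 0.053, 0.090 and 0.053, and Enpp1 at 0.23, 0.23, 0.26 and 0.23. Rspo1 was at 0.094, 0.043, 0.058 and 0.053, Rnf43 at 0.20, 0.18, 0.21 and 0.19, and Kcnip3 at 0.22, 0.16, 0.15 and 0.20. Hbb-bs was at 0.098, 0.067, 0.11 and 0.067, and Fermt1 at 0.061, 0.024, 0.041 and 0.031. With upper quartile factors Enpp1 was at 0.080, Rnf43 at 0.048 and Kcnip3 at 0.065. Tnmd was at -0.0057 with DESeq2 size factors, -0.0054 with DESeq2 and -0.0077 with the Y-linked covariate. Leaving out 1 library gave ranges of -0.036 to 0.12 for Tnmd, -0.058 to 0.0094 for Enpp1 and -0.11 to 0.035 for Kcnip3. Over the 95 other genes picked by the naming rule and all alternatives, 1845 values kept call and direction. Another 46 turned sign, whether or not their call changed. Of the values that kept their sign, 61 lost a call and 37 gained one.

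Same-numbered libraries had correlations of deviations of -0.0843 to 0.146 and only replicate 1 correlated best with its own number, so this check showed no pairing by number. Weak correlations cannot show that same-numbered libraries share no litter or day, which the labels do not give. A fit with the replicate block called 10392 genes (5453 higher, 4939 lower) and the same 4 markers, with Anxa1 at -0.05.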

Other observations

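Other cell type lists of the dissected strip differed between groups too. Of 8 melanocyte genes 7 rose under hypothyroidism and 1 fell, with summed levels of 504 to 716 CPM in euthyroid and 942 to 1779 CPM in hypothyroid libraries. Schwann cell and glial genes summed to 4101 to 5874 and 622 to 786 CPM, with 2 of 8 higher and 3 lower, and without S100b the sums overlapped (311 to 414 and 272 to 337 CPM). Of 8 blood vessel genes 7 were lower, with sums of 1701 to 2167 and 945 to 1072 CPM. Marginal cell genes of the stria (448 to 633 and 473 to 894 CPM) and red blood cell genes (437 to 798 and 492 to 710 CPM) overlapped in their sums, with 2 of 7 and 1 of 6 lower. These calls are by edgeR, against 71.8% of all tested genes called, and their part in the marker results was not tested.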
